A study of Mus musculus with 4 samples.

Results

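PT-S3-3 was one of 23 clusters of nuclei from mouse kidney cortex, and one of 3 clusters that were assigned to the S3 segment, the straight last stretch of the proximal tubule. It was taken as cluster 4 of the deposited table of cluster averages, so it was represented by 4 of 92 columns, 1 for each of 4 mice. The study profiled single nuclei after acute injury with aristolochic acid I (AAI), with and without overexpression of human KLF6, a zinc finger transcription factor. The control mice carried TRE-hKLF6 alone, a human KLF6 transgene that is silent without a tetracycline transactivator. The hKLF6OE mice carried CAG-rtTA,TRE-hKLF6, in which the CAG promoter drives the transactivator in most cell types, so overexpression was not limited to the tubule. All 4 mice were males of mixed strain on a doxycycline diet, and in each genotype 1 mouse received a single injection of 2 mg/kg AAI, 24 hours before its kidney was taken, and 1 received none. Each condition was therefore 1 mouse, there were no replicates, and AAI and genotype cannot be told apart from other differences between single mice. The 4 kidneys were carried through nuclei isolation and library preparation together. Below, paired values are given for the control mouse first and the hKLF6OE mouse second.

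The S3 segment reabsorbs what the earlier segments leave behind and secretes organic anions and cations, drugs and toxins into the urine. It is rich in peroxisomes, it depends on fatty acid oxidation, and in male rodents many of its transporters and enzymes need androgens. AAI, a plant nephrotoxin, enters the proximal tubule through organic anion transporters, is activated by reduction and forms bulky DNA adducts that block transcription and call on nucleotide excision repair and the p53 response.

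Each value was a gene's mean level over the nuclei of the cluster in 1 mouse, with each nucleus scaled to a total of 10000, and is called a level here. Differences are given on the log2(level + 1) scale, which understates changes of genes with low levels. A gene was tested when the larger of the levels compared was at least 0.5 in every mouse or pair, and it was counted as higher or lower when the difference was at least 0.2 in the same direction in every mouse or pair. No p-value can be given with 1 mouse in each condition, and the deposited averages carry no numbers of nuclei or reads. Because nuclei were assigned to PT-S3-3 by the same expression that is compared here, a change within nuclei and a change in which nuclei fell into the cluster cannot be told apart.

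The cluster carried its label's marker. *Slc7a13*, a cystine and aspartate exchanger of the S3 brush border (chr4:19818725-19842218, GRCm38), was at 20.7 and 13.9 in the mice without AAI and at 22.2 and 18.6 in the mice with AAI. In each mouse this was the second highest level among the 23 clusters, below PT-S3-2, where it ranged from 21.7 to 28.3. PT-S3-1 was lower, at 13.5 and 9.09 without AAI and at 9.92 and 2.38 with AAI. Across 927 genes of the study's marker sheet, the profile listed for PT-S3-3 correlated best with cluster 4 (r = 0.91, across genes, which are not independent replicates) and next with PT-S3-2 (r = 0.818). InjuredPT-B, an injured proximal tubule cluster, followed (r = 0.764), and then PT-S3-1 (r = 0.744). The most abundant transcripts of the cluster were *Malat1*, *Ghr*, *Zbtb20*, *Pde4d*, *Keg1* and *Kap*. Mouse *Klf6* was at 0.184 and 0.0942 without AAI and at 0.37 and 0.267 with AAI, which checks nothing on the human transgene, since the human transcript was not analysed here.

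Markers of neighbouring cell types were low in PT-S3-3. The summed level of 8 thick ascending limb markers was 8.90 to 11.38, against 364 in the ascending limb cluster LH-AL-1, and that of 6 distal convoluted tubule markers was 4.74 to 6.81, against 280.2 in the distal convoluted tubule cluster. Podocyte markers summed to 1.32 to 2.33 (733 in podocytes), endothelial markers to 0.528 to 0.754 (118.3), collecting duct markers to 0.325 to 0.698 (22.8), macrophage markers to 0.383 to 0.607 (37.8) and stromal markers to 0.0464 to 0.0923 (8.04). *Egfl7*, *Slc14a2* and the injury marker *Sox9* were at 0 in all 4 mice. Mitochondrially encoded genes held 1.32% and 1.86% of the total without AAI and 0.838% and 0.626% with AAI, and the share of genes at 0 was 21.5% and 22.2% without AAI and 31.3% and 30.4% with AAI. The other S3 clusters had 15.1% to 23.1% of genes at 0 without AAI and 21.4% to 27.2% with AAI.

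Against the mean of the other 22 clusters, PT-S3-3 had high levels of S3 transporters and of enzymes for peroxisomal lipids, steroids and conjugation. It had low levels of several S1 genes and of distal nephron genes. Since the cluster was drawn from these values, the contrast is a description of the cluster. Of 4003 genes tested, 597 (14.9%) were higher and 786 (19.6%) were lower in all 4 mice. Of 14 S3 markers with values, 10 passed the filter, and 6 of these were higher and 0 lower, with medians of 0.58 and 0.53 without AAI and 1.43 and 1.33 with AAI, while the median over all tested genes was between -0.05 and -0.02. *Slco1a6*, an organic anion transporting polypeptide, was at 15.9 and 15.4 without AAI and at 14.1 and 12.9 with AAI, a difference of 1.47 to 1.67 from the other clusters. *Slc22a30*, an organic anion transporter family member with close paralogs that can share reads, was at 12.5 and 10.4, then at 9.23 and 6.72. *Slc6a18*, a neutral amino acid transporter of the late proximal tubule, was at 4.59 and 3.15 without AAI and at 7.74 and 10.2 with AAI. Other S3 markers had low levels: *Slc5a1*, the high-affinity glucose transporter SGLT1, was between 0.175 and 0.495, and *Bcat1*, a branched-chain aminotransferase, between 0.0231 and 0.431.

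Part of the S1 genes gave the opposite picture. *Slc34a1*, a phosphate transporter on the S1 list, did not have a low level without AAI. It was at 56.8 and 41.8 there, and at 9.94 and 4.16 with AAI. *Slc5a12*, the low-affinity lactate transporter, was at 1.51 and 1.59 without AAI and at 1.80 and 1.79 with AAI, the lowest or next to lowest level among the 23 clusters in each mouse. *Slc5a2*, the glucose transporter SGLT2, lay between 0.344 and 0.532 and *Slc6a19*, the main neutral amino acid transporter of the early tubule, between 0.469 and 0.537. Of the 10 S1 markers that passed the filter 5 were lower and 2 were higher, the endocytic receptors *Lrp2* and *Cubn*, which are used along the whole proximal tubule. *Lrp2* stood at 22.6 and 14.6 without AAI and at 14.6 and 18.3 with AAI. Of 7 S2 markers 3 were higher and 1, *Fxyd2*, was lower.

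**Figure D1:**
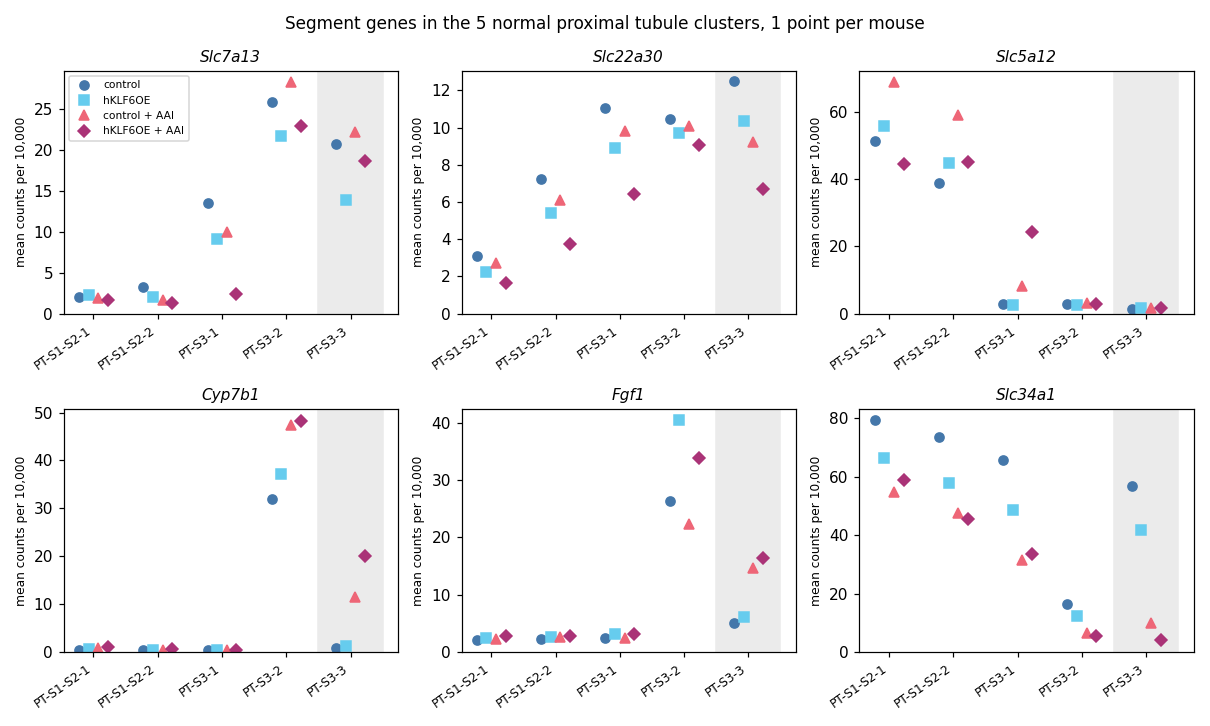
Levels of 6 genes, 1 panel each, in the 5 clusters of normal proximal tubule (horizontal axis), with 1 point per mouse on a linear axis from 0 in mean counts per 10000 and PT-S3-3 shaded. *Slc7a13* in PT-S3-3 sat between 13.9 and 22.2, below PT-S3-2 and above PT-S3-1 in every mouse, and *Slc5a12* sat at or below 1.80.

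Outside the marker lists, the genes furthest above the other clusters included *Ghr*, the growth hormone receptor, at 84.9 and 84.4 without AAI and at 171 and 124 with AAI, and *Keg1*, a kidney gene of the glycine N-acyltransferase type, at 84.1 and 59.3, then 67.8 and 54.9. The lincRNA *Gm42397* was at 15.8 and 13.3 without AAI and at 4.76 and 3.02 with AAI, and it was 1.64 to 2.04 above the other clusters in all 4 mice. *Hnf4aos* was 1.26 to 1.40 higher, but it lies antisense to *Hnf4a* (chr2:163493807-163541720), and the strand setting of the counting was not given in the sources used here, so reads of the pair may have been shared. The genes furthest below were those of the distal nephron and glomerulus, such as *Slc12a1*, the loop diuretic target, lower by 3.49 to 3.79, and *Magi2*, a podocyte scaffold, lower by 3.65 to 4.69.

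Of the organic ion transporters, 13 of 20 tested genes were higher and 1, *Abcc4*, was lower, beside 14.9% higher among all genes. *Abcc2*, the apical conjugate export pump, was at 11.97 and 7.59 without AAI and 23.8 and 31.7 with AAI, and *Slc47a1*, the proton antiporter that secretes organic cations, was at 13.2 and 11.05, then 9.35 and 10.0. Both were 1.10 or more above the other clusters in every mouse. Peroxisome and ether lipid enzymes gave 14 of 22 higher and 1 lower, with medians between 0.46 and 0.69. Among them *Slc27a2*, which activates very long-chain fatty acids, was between 20.8 and 25.1 and *Acot12*, an acyl-CoA thioesterase, between 2.86 and 3.71. Steroid, retinoid and bile acid enzymes gave 9 of 15 higher and 2 lower, led by *Hsd3b3* at 3.77 and 4.18 without AAI and 3.27 and 2.69 with AAI. Phase II conjugation enzymes gave 10 of 16 higher and 0 lower, among them *Acsm1*, a medium-chain acyl-CoA synthetase, between 5.75 and 7.43.

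Transcription factors of the tubule were 12 of 19 higher and 2 lower, beside 14.9% higher and 19.6% lower among all genes. *Hnf4a*, a master regulator of the proximal tubule, was at 2.84 and 3.04 without AAI and at 2.31 and 2.03 with AAI, and its relative *Hnf4g* was at 5.59 and 4.34, then 6.98 and 5.92. The 2 lower were *Tfcp2l1* and *Pax2*, both known from the distal nephron and collecting duct. Hormone receptors were 9 of 19 higher and 3 lower: *Ghr*, *Esr1* and *Thrb* were among the higher, and the mineralocorticoid receptor *Nr3c2* was lower. Of 44 nuclear oxidative phosphorylation genes 18 were lower and 0 higher, and lower were also all 11 tested mitochondrially encoded genes, with medians between -1.03 and -0.61. Ribosomal protein genes gave 13 of 26 lower and 0 higher.

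Promoter sequences are shown for 3 higher genes that are known for work in the late proximal tubule. Their windows hold the letters CAAAGTCCA, an HNF4-type motif. *Hnf4a* and *Hnf4g* were both higher in the cluster as well, but whether they act on these 3 genes was not tested. *Slc3a1* encodes rBAT, the heavy chain that pairs with the *Slc7a13* product, *Aadat* an aminotransferase of lysine and kynurenine breakdown, and *Agxt2* a mitochondrial aminotransferase that clears dimethylarginines. The windows run from 250 bases before to 50 after the RefSeq start (GRCm38.p6), are written 5′ to 3′ on the gene's strand, and have the motif in capitals, as TGGACTTTG where it lies on the other strand. They are chr17:85028097-85028396 (+) for *Slc3a1*, chr8:60505874-60506173 (+) for *Aadat* and chr15:10358283-10358582 (+) for *Agxt2*.
Slc3a1: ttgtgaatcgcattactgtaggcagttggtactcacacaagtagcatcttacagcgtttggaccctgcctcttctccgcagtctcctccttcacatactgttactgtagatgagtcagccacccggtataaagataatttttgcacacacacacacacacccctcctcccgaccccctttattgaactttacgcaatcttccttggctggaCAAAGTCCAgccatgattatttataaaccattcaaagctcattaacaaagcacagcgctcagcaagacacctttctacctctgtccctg
Aadat: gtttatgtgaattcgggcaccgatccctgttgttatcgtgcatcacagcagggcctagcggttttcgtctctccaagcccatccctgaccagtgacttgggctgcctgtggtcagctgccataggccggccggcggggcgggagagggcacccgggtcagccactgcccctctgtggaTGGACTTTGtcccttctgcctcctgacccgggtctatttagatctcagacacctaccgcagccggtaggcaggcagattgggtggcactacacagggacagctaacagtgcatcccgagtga
Agxt2: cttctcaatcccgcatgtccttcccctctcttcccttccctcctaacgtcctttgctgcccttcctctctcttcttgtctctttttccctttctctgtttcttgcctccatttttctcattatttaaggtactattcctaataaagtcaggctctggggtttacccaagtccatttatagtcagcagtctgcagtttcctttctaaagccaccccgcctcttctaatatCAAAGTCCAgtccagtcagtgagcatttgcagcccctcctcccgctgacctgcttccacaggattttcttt
The motif, searched on both strands, was held by 150 of 27025 promoter windows (0.555%). The 3 genes were chosen after their values were seen, and a share among the higher genes is not given, because only 474 of the 597 had an entry. In the cluster, *Slc3a1* was at 2.51 and 2.57 without AAI and at 4.73 and 5.40 with AAI, *Aadat* at 1.02 and 1.38, then 2.58 and 3.57, and *Agxt2* at 1.51 and 0.952, then 1.11 and 0.971. The first 2 were higher with AAI in both genotypes and *Agxt2* was not.

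Few genes had their highest level in PT-S3-3. In all 4 mice, 6 genes had their highest level of the 23 clusters in PT-S3-3, *Col19a1*, *Gm13936*, *0610005C13Rik*, *Mfsd4b5*, *Utp20* and *Gm10271*, while 29 genes did so in both mice without AAI and 99 in both with AAI. The 6 had to reach a level of 0.5 in any mouse, but the 29 and the 99 in both mice, so the counts are not on the same footing. The number of genes open to each count was not taken, and the difference between 29 and 99 was not tested. Only 4 genes were above both PT-S3-1 and PT-S3-2 in every mouse. *Col19a1*, a collagen of basement membrane zones, was at 2.13 and 2.29 without AAI and at 0.914 and 0.623 with AAI. *Pdgfc*, a platelet-derived growth factor, was at 2.79 and 1.69, then 4.98 and 4.38, *Pigr*, the polymeric immunoglobulin receptor, at 1.13 and 0.856, then 1.26 and 0.736, and the antisense RNA *Gm13936* at 2.65 and 2.67, then 3.75 and 1.08. *Slc5a12* was the 1 gene below both.

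Against PT-S3-1, 71 of 3396 tested genes (2.09%) were higher and 66 (1.94%) lower in every mouse. The higher genes included *Chrm3*, the M3 muscarinic receptor, which was at 3.43 and 4.19 without AAI and 4.68 and 6.75 with AAI in PT-S3-3, and at 0.85 and 1.37, then 0.100 and 0.157, in PT-S3-1. *Esr1*, the estrogen receptor, was at 3.16 and 3.55, then 3.02 and 2.43, with 1.21 and 1.75, then 0.335 and 0.0666, in PT-S3-1. *Fgf1* and *Tet2* (a growth factor and a 5-methylcytosine dioxygenase) were higher as well. Lower than in PT-S3-1 were *Car12*, a membrane carbonic anhydrase, at 1.16 and 1.15, then 0.263 and 0.229, against 3.11 and 3.25, then 2.53 and 3.00, and the organic anion transporter *Slc22a8*, at 1.37 and 1.10, then 0.717 and 0.186, against 2.75 and 2.08, then 3.63 and 2.40. Of the S3 markers 4 of 10 tested were higher and 0 lower, and of the S1 markers 0 of 10 were higher and 5 lower. In the lists that stood out against the other 22 clusters, fewer members differed from PT-S3-1. Of the organic ion transporters 1 of 19 was higher and 2 lower, and of the peroxisome and ether lipid enzymes 3 of 22 and 0. Steroid, retinoid and bile acid enzymes gave 5 of 14 higher and 1 lower. Phase II enzymes gave 1 of 15 and 0, and tubule transcription factors 2 of 19 and 1.

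Against PT-S3-2, 119 of 3425 tested genes (3.47%) were higher and 136 (3.97%) lower. *Slc13a1*, the sodium sulfate cotransporter, was at 14.2 and 8.99 without AAI and 26.5 and 18.3 with AAI, with 3.03 to 5.84 in PT-S3-2. *Rhobtb1* was at 12.1 and 10.6, then 5.10 and 3.48, with 1.04 to 3.58 in PT-S3-2, and *Slco1a1*, an organic anion uptake transporter of male kidney, was between 3.32 and 4.02, with 0.703 to 1.28 there. Lower in PT-S3-3 was *Cyp7b1*, the oxysterol 7-alpha-hydroxylase (chr3:18071950-18243338), which was at 0.746 and 1.22 without AAI, with 32.0 and 37.1 in PT-S3-2. *Rnf24*, a ring finger protein, *Bcat1* and the amino acid transporter *Slc6a15* were lower as well. Of the S3 markers 0 of 12 tested were higher and 5 lower, and of the S2 markers 3 of 6 were higher and 0 lower. Of the organic ion transporters 5 of 19 were higher and 2 lower, and of the peroxisome and ether lipid enzymes 4 of 22 and 3. Steroid, retinoid and bile acid enzymes gave 1 of 14 higher and 3 lower. Phase II enzymes gave 2 of 15 and 2, and tubule transcription factors 1 of 20 and 1. In all, 24 genes lay above PT-S3-1 and below PT-S3-2, which was 33.8% of the genes higher than PT-S3-1 and 17.6% of those lower than PT-S3-2, and 5 genes (7.58% and 4.2%) lay the other way round.

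Which S3 cluster PT-S3-3 most resembled differed between the mice without and with AAI. Over 4272 genes, the root mean square log2 difference from PT-S3-1 was 0.116 and 0.110 without AAI and 0.293 and 0.386 with AAI. From PT-S3-2 it was 0.265 and 0.274 without AAI and 0.260 and 0.226 with AAI. PT-S3-1 was thus the nearest of the 22 clusters in both mice without AAI, and PT-S3-2 the nearest in both mice with AAI. With AAI, the next nearest after PT-S3-2 and PT-S3-1 was the injured cluster InjuredPT-B, at 0.326 and 0.391. The same order was found with a pseudocount of 0.1, with genes at a mean level of 2 or more, without mitochondrially encoded and ribosomal genes, and after centring. In single mice, 7.12% and 6.48% of tested genes differed by 0.2 or more from PT-S3-1 without AAI, and 33% and 40.5% with AAI, while the share that differed from PT-S3-2 was 27.3% and 26.9%, then 32.5% and 30%.

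**Figure D2:**
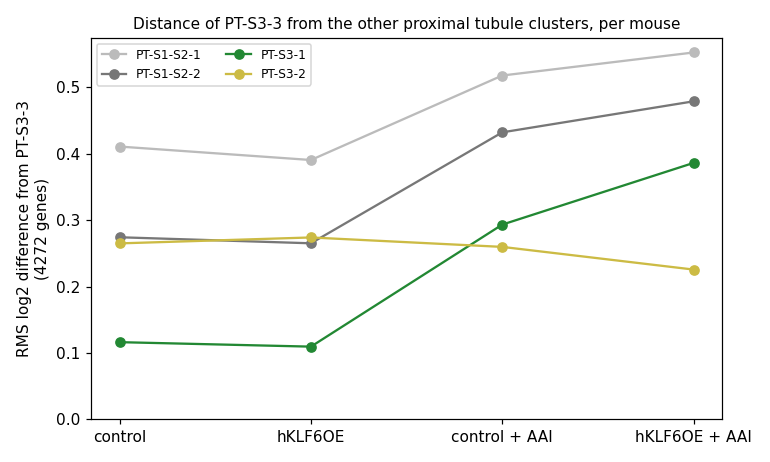
Root mean square log2 difference over 4272 genes between PT-S3-3 and each of the other 4 clusters of normal proximal tubule (vertical axis), for each mouse, with a line for each cluster. PT-S3-1 was nearest without AAI (0.116 and 0.110) and PT-S3-2 was nearest with AAI (0.260 and 0.226).

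The position of PT-S3-3 between its neighbours was also taken gene by gene, with the PT-S3-1 level set at 0% and the PT-S3-2 level at 100% on the linear scale in the same mouse, for genes that differed between those 2 clusters by 1 or more on the log2 scale in all 4 mice, a measure added after the data were seen. PT-S3-1 and PT-S3-2 also changed with AAI, so a position can change without a change of the PT-S3-3 level, and the reverse. Over the 42 genes higher in PT-S3-2, the median position was 13.6% and 10.5% without AAI and 45.1% and 45.2% with AAI. Over the 28 genes higher in PT-S3-1 it was 28.2% and 27.2%, then 81.7% and 98.2%, so that PT-S3-3 with AAI had nearly the PT-S3-2 level of these genes. *Tet2* moved from 16.9% and 18.1% to 89.0% and 105.7%, from a level of 6.72 and 7.08 to one of 19.8 and 15.8. *Fgf1* moved from 10.7% and 7.93% to 61.7% and 43.1%, and *Kng2*, a kininogen, from 1.37% and 0.754% to 64.2% and 78.9%. Of the genes higher in PT-S3-1, *Slc34a1*, the main phosphate transporter of the proximal tubule, moved from 18.1% and 18.5% to 85.7% and 104.2%, and *Timp3*, a metalloproteinase inhibitor, from 32.3% and 12.7% to 90.8% and 99.1%.

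Other genes kept a position near PT-S3-1, whatever their own change in level. *Bcat1* was at -0.746% and 0.644% without AAI and at 3.95% and 12.1% with AAI, and *Rnf24* at 9.18% and 6.14%, then 9.61% and 17.5%. *Rhobtb1* went from 4.22% and 4.31% to 8.22% and 15.95%. The shift in relative position toward PT-S3-2 was therefore uneven, with 4 and 2 of the 42 genes still under 10% with AAI, against 17 and 19 without.

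**Figure D3:**
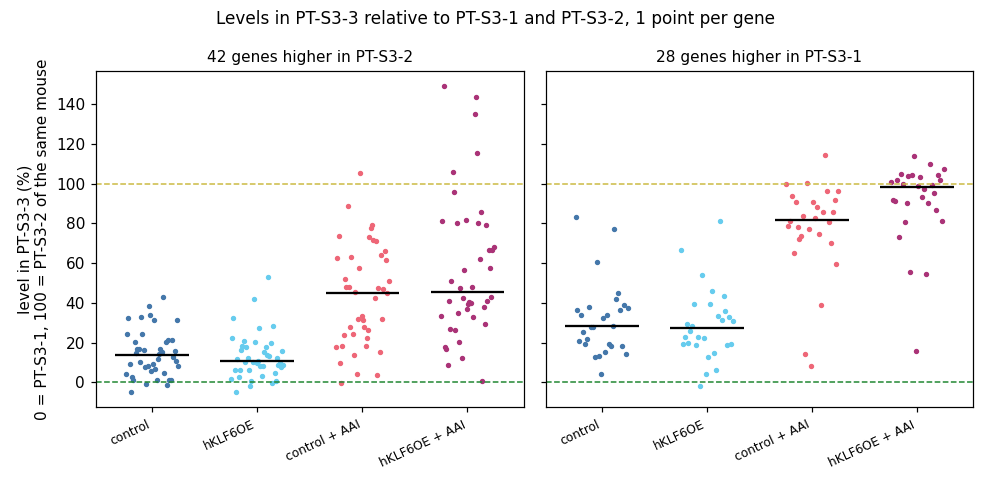
Position of PT-S3-3 between PT-S3-1 (0%) and PT-S3-2 (100%) in each mouse, with 1 point per gene and a bar at the median, for the 42 genes higher in PT-S3-2 and the 28 higher in PT-S3-1. The medians were 13.6% and 10.5% without AAI and 45.1% and 45.2% with AAI in the first panel, and 28.2% and 27.2%, then 81.7% and 98.2%, in the second.

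With AAI, PT-S3-3 had higher levels of p53 targets such as *Mdm2*, of the oxysterol enzyme *Cyp7b1* and of several transporters, and lower levels of *Slc34a1*, of very long genes and of mitochondrially encoded transcripts. Of 3954 genes tested, 590 (14.9%) were higher and 433 (11%) lower in both genotypes. In the control pair alone 967 of 4210 genes (23%) were higher and 782 (18.6%) lower, and in the hKLF6OE pair alone 1238 of 4254 (29.1%) and 892 (21%). The median over all tested genes was 0.03 and 0.06. The size of the response, as a root mean square log2 difference, was 0.336 and 0.400 in PT-S3-3, 0.280 and 0.352 in PT-S3-1 and 0.206 and 0.271 in PT-S3-2.

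Of 39 genes of the list with values, 15 passed the filter, 12 were higher and 1, *Cyfip2*, was lower, with medians of 1.09 and 0.95. Over all 39 genes, with no filter, the medians were 0.30 and 0.26. *Mdm2*, the p53 ubiquitin ligase and itself a p53 target (chr10:117688875-117710758), was at 1.01 and 0.934 without AAI and at 7.69 and 8.16 with AAI, a difference of 2.11 and 2.24. *Ccng1*, cyclin G1, rose from 0.210 and 0.227 to 2.12 and 1.74, and *Trp53inp1*, a stress protein induced by p53, from 0.234 and 0.355 to 3.52 and 3.15. *Gdf15*, a stress cytokine, rose from 0.126 and 0.141 to 2.84 and 1.20. Members under 0.5 without AAI, such as these 3, passed the filter only through their level with AAI, so the count describes the genes that passed and not the whole list. *Cdkn1a*, the cyclin-dependent kinase inhibitor p21, stayed under the filter, at 0 and 0.00605 without AAI and at 0.474 and 0.249 with AAI. The list of nucleotide excision repair and lesion bypass had 4 of 12 genes higher and 0 lower, among them the bypass polymerases *Polk* (0.431 and 0.454, then 2.05 and 2.31) and *Rev1* (1.37 and 1.16, then 3.23 and 3.95). *Polk* too passed the filter only through its level with AAI. The medians of this list were small, 0.06 and 0.12 over the 12 genes, and 0.04 and 0.06 over all 32 with no filter.

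Further from the damage response, *Cyp7b1* rose from 0.746 and 1.22 to 11.5 and 20.1, a difference of 2.85 and 3.25, and *Gramd1b*, which moves cholesterol between the plasma membrane and the endoplasmic reticulum, rose from 5.99 and 6.25 to 30.0 and 65.1. *Cd36*, a fatty acid uptake receptor, rose from 1.89 and 1.69 to 7.16 and 8.71. *Nrg1*, an ERBB receptor ligand, rose from 6.11 and 6.22 to 21.4 and 24.4, the highest level of the 23 clusters in both AAI mice. Genes near 0 without AAI also rose: *Serpine2*, a protease inhibitor, from 0.0170 and 0.199 to 3.20 and 3.09, *Cxcl1*, a neutrophil attractant, from 0.0631 and 0.0795 to 2.63 and 2.65, and *Abcb1b*, a P-glycoprotein drug pump, from 0.0694 and 0.154 to 2.66 and 2.84. All of these passed the filter only through their level with AAI. The study stained CXCL1 as a top marker of the injured cluster InjuredPT-B. Standard injury markers were low in all 4 mice: *Havcr1*, kidney injury molecule 1, was at 0.0345 and 0.0167 without AAI and at 0.0909 and 0.204 with AAI. The 16 injured tubule markers summed to 5.995 and 5.55 without AAI and 9.19 and 9.65 with AAI, and 2 of the 4 that passed, *Cxcl1* and *Plin2*, were higher. *Cxcl1* held most of the rise in the sum and passed the filter only through its level with AAI. Over all 16 markers, with no filter, the medians were 0.00 and 0.03.

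Of the genes that fell, *Slc34a1* (chr13:55398187-55415592) went from 56.8 and 41.8 to 9.94 and 4.16, a difference of -2.40 and -3.05. *G6pc*, the last enzyme of gluconeogenesis, fell from 6.48 and 2.94 to 0.997 and 0.692. *Lpl*, lipoprotein lipase, fell from 6.78 and 5.66 to 0.975 and 0.900, and *Plcb1*, a phospholipase C, from 15.1 and 14.1 to 3.08 and 1.59. *Ndrg1*, a stress-responsive gene, fell from 30.0 and 28.6 to 7.16 and 6.405. Proximal tubule identity genes were among those that fell: 6 of 12 pan proximal tubule markers, 5 of 7 S2 markers and 3 of 8 S1 markers were lower, and 2, 0 and 2 were higher. The lists overlap, so a shared gene can count in more than 1. *Slc34a1*, *Lrp2* and *Cubn* are on both the S1 and the pan proximal tubule list, and *Slc7a7* is on both the S1 and the S3 list. The S3 markers were split, with 4 of 11 higher and 4 lower, and *Slc7a13* itself was not counted, with differences of 0.10 and 0.40.

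**Figure D4:**
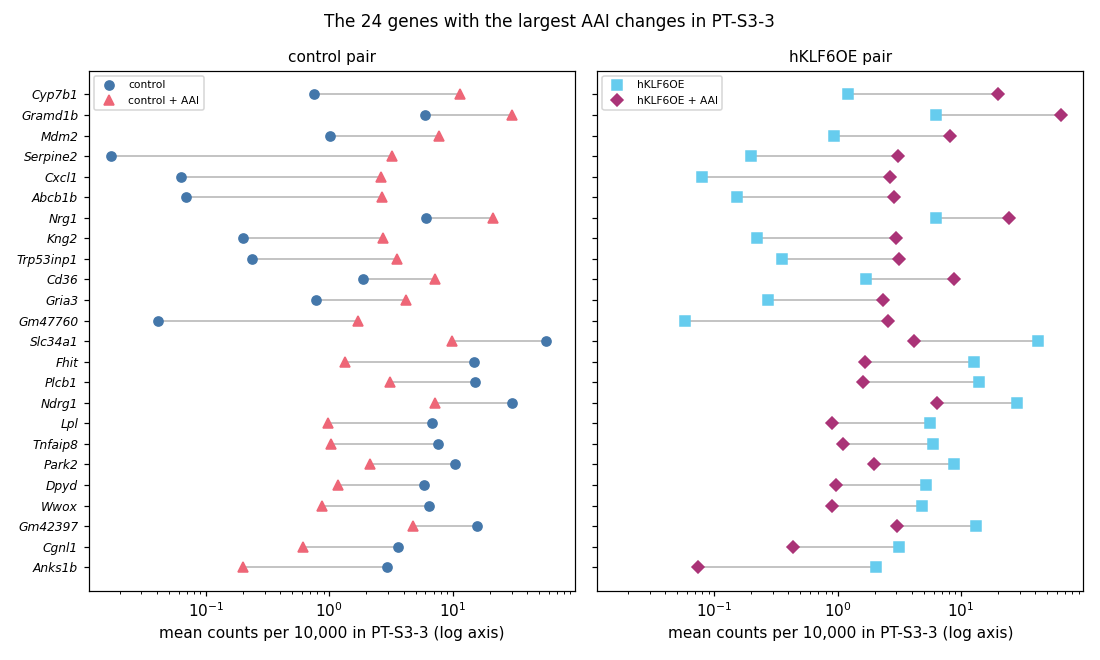
Levels in PT-S3-3, in mean counts per 10000 on a log axis, of the 12 genes that rose most and the 12 that fell most with AAI, with a line joining the mouse without and the mouse with AAI of the control pair and of the hKLF6OE pair. *Cyp7b1* rose from 0.746 and 1.22 to 11.5 and 20.1 and *Slc34a1* fell from 56.8 and 41.8 to 9.94 and 4.16.

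Drug handling genes moved in both directions. The shares over all tested genes, 14.9% higher and 11% lower, are the background for the counts that follow. Of 21 organic ion transporters 5 were higher and 8 lower, with medians of -0.16 and -0.13. Over all 29 of the list, with no filter, the medians were 0.01 and 0.03. *Abcc2* and *Abcb1b*, which pump conjugates and drugs out into the lumen, were higher. *Abcb1b* was under 0.5 without AAI and passed the filter only through its level with AAI. *Slc22a6* and *Slc22a8*, which take up organic anions from the blood side, were lower, as was *Slc22a7*. Another member of that family, *Slc22a19*, rose. *Slc22a6*, the transporter OAT1, was at 2.37 and 2.47 without AAI and at 1.88 and 1.34 with AAI. Phase II conjugation enzymes were 3 of 18 higher and 9 lower, with medians of -0.24 and -0.46, while over all 32 of the list, with no filter, the medians were 0.00 and -0.06. Male-biased kidney genes were 1 of 10 higher and 6 lower. Of 12 NRF2 and glutathione genes 5 were higher and 0 lower, with medians of 0.08 and 0.63, and over all 22 with no filter the medians were 0.06 and 0.14. *Nqo1*, a quinone reductase that also reduces AAI, rose from 0.451 and 0.571 to 2.33 and 3.11, and under 0.5 in the control mouse it passed only through its level with AAI there. Of 20 tubule transcription factors 6 were higher and 5 lower, among the latter *Hnf4a*. Mitochondrially encoded genes were 8 of 11 lower and 0 higher, with medians of -0.66 and -1.29 (-0.29 and -0.89 over all 13 with no filter), and 5 of 40 nuclear oxidative phosphorylation genes were lower, a share near that of all genes, and 0 were higher. The mitochondrially encoded share was lower with AAI in other clusters as well, so this fall was not particular to PT-S3-3. In the distal convoluted tubule cluster it was 1.93% and 2.65% without AAI and 1.29% and 1.07% with AAI. In the control pair of the mixed cluster DCT_CNT it rose, from 1.28% to 1.34%. Among the markers of other cells, the distal convoluted tubule sum was 4.74 and 5.00 without AAI and 5.59 and 6.81 with AAI, and the macrophage sum 0.383 and 0.519, then 0.607 and 0.524, and their part in the AAI response was not tested.

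**Figure D5:**
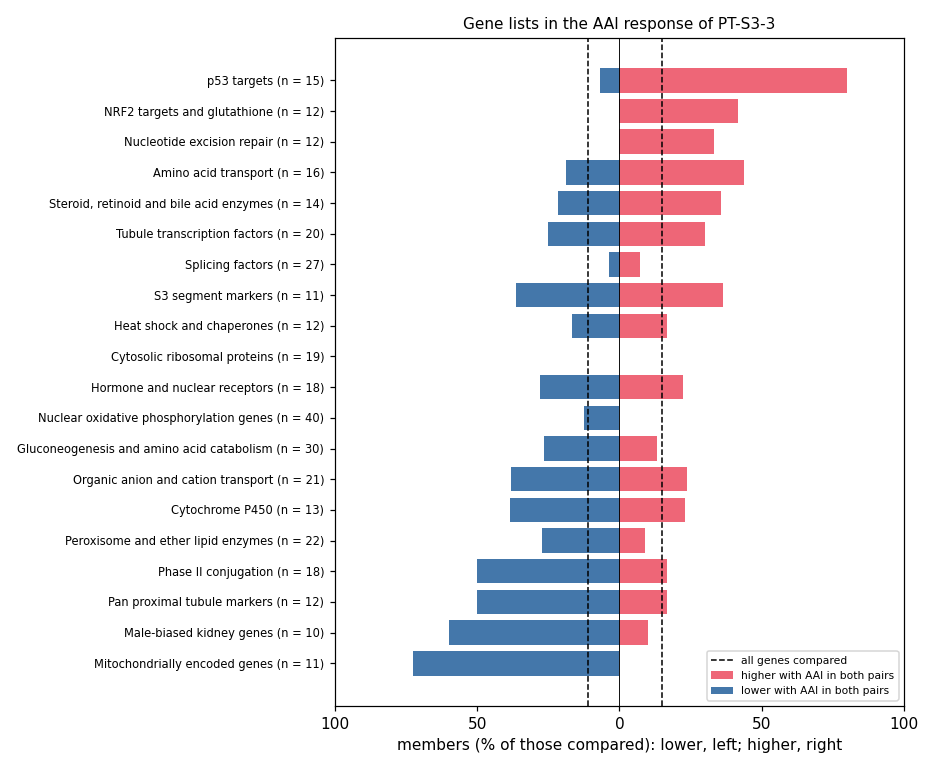
Share of the tested members of each gene list that were lower (left) or higher (right) with AAI in both pairs, with dashed lines at the shares over all tested genes (11% and 14.9%). The p53 targets had 12 of 15 members on the right, but the bar leaves out the members that did not pass the filter and holds some that passed only through their level with AAI, and the mitochondrially encoded genes had 8 of 11 on the left.

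Very long genes were frequent among those that fell. Genes over 300 kb, a class set after the data were seen, made up 19.8% of the lowered genes with a known length (85 of 429), 4.87% of all tested (191 of 3921) and 4.27% of the raised (25 of 586). Genes under 30 kb made up 34.3% of the lowered and 28.5% of all tested, those of 30 to 100 kb 23.8% and 44.1%, and those of 100 to 300 kb 22.1% and 22.6%, so the lowered genes held more of the shortest class as well. In single pairs, 59.8% and 45.8% of the genes over 300 kb were lower, against 19.9% and 34.1% of those under 30 kb. *Fhit*, a gene of a common fragile site that spans 1612 kb (chr14:9550092-11162035), fell from 14.99 and 12.6 to 1.35 and 1.66, and *Wwox*, another fragile site gene of 913 kb, from 6.42 and 4.87 to 0.879 and 0.900. *Park2*, a ubiquitin ligase of mitochondrial quality control, fell from 10.5 and 8.75 to 2.12 and 1.96. The median change of genes over 300 kb was -0.36 and -0.17 in PT-S3-3, -0.22 and -0.06 in PT-S3-1 and -0.06 and 0.11 in PT-S3-2. The share of genes at 0 was higher with AAI in the same mice, and its part in these values was not tested.

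The AAI response of PT-S3-3 was then set against the mean response of PT-S3-1 and PT-S3-2 in the same mice. Of 4357 genes tested, 348 (7.99%) changed more upward or less downward and 319 (7.32%) the other way in both genotypes. *Cyp7b1* led the first group, with a surplus of 2.55 and 2.99: it stayed between 0.307 and 0.435 in PT-S3-1 and was already at 32.0 and 37.1 in PT-S3-2 without AAI. *Gramd1b* had a surplus of 1.30 and 2.13, *Fgf1* of 1.52 and 1.41 and *Tet2* of 1.20 and 1.33. The organic anion transporter family member *Slc22a19* had one of 1.49 and 1.33, rising from 0.868 and 0.662 to 3.69 and 2.05 in PT-S3-3, whereas in PT-S3-1 it ranged from 0.0788 to 0.135. Of the p53 list, 6 of 17 had a surplus and 1 a deficit, and the response of *Mdm2* (surplus 0.61 and 0.57) was larger than the mean of the neighbours, although PT-S3-1 alone reached 7.89 and 6.65.

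Of the glutathione and NRF2 genes, 7 of 14 had a surplus over the neighbours and 0 a deficit, with medians of 0.19 and 0.42, beside 0.03 and 0.02 over all tested genes and 0.15 and 0.16 over all 22 of the list with no filter. *Nqo1* had a surplus of 0.88 and 1.20, and with AAI it reached 0.649 and 0.389 in PT-S3-1 and 0.980 and 1.07 in PT-S3-2. *Gclc*, the catalytic subunit of the rate-limiting enzyme of glutathione synthesis, had one of 1.00 and 1.86. It went from 12.7 and 5.13 to 14.1 and 19.1 in PT-S3-3, from 8.18 and 3.30 to 5.21 and 2.63 in PT-S3-1, and from 39.5 and 15.2 to 17.4 and 14.8 in PT-S3-2. Within PT-S3-3 alone *Gclc* was not counted, since the control pair differed by 0.14.

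Falls that went beyond those of the neighbours included *Slc34a1* (-1.25 and -2.26), *Plcb1* (-1.55 and -2.45) and *Fhit* (-1.23 and -1.30). *Slc34a1* was at 31.6 and 33.6 with AAI in PT-S3-1. *Pik3c2g*, a class II phosphoinositide kinase, went from 3.29 and 2.57 to 1.09 and 0.423 in PT-S3-3 and from 6.26 and 4.78 to 9.59 and 8.09 in PT-S3-1, and *Timp3* from 18.6 and 17.4 to 6.71 and 5.05, with 21.7 and 19.4 in PT-S3-1 with AAI. Of the S1 markers 0 of 11 were higher and 4 lower, and of the S3 markers 6 of 13 were higher and 2 lower.

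Between genotypes the differences in PT-S3-3 were fewer. Of 3602 genes tested, 36 (0.999%) were higher and 88 (2.44%) lower in the hKLF6OE mouse of both pairs, while single pairs gave 367 higher and 491 lower of 3992 (9.19% and 12.3%) without AAI and 562 and 626 of 4120 (13.6% and 15.2%) with AAI. *Gli2*, a transcription factor of Hedgehog signalling, was at 0.0252 and 0.593 in the control and hKLF6OE mice without AAI and at 0.129 and 0.864 with AAI. It passed the filter only through its level in the hKLF6OE mice. *Mylk*, myosin light chain kinase, was at 4.62 and 7.42, then 2.36 and 3.95, and *Kcnk5*, the potassium channel TASK2, at 2.97 and 6.73, then 3.97 and 5.87. *Sult1d1*, a sulfotransferase, was at 1.29 and 2.04, then 2.58 and 3.93.

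Metabolic enzymes were among the genes lower in hKLF6OE mice. *Ehhadh*, the peroxisomal bifunctional enzyme, was at 10.7 and 5.75 without AAI and at 6.43 and 2.65 with AAI. *Ugt2b37*, a glucuronosyltransferase with near-identical paralogs that can share reads, was at 1.65 and 0.637, then 0.598 and 0.0897. Of 17 Phase II conjugation enzymes 1 was higher and 4 lower, of 15 steroid, retinoid and bile acid enzymes 2 were higher and 4 lower, of 22 peroxisome and ether lipid enzymes 0 were higher and 3 lower, and of 19 organic ion transporters 0 were higher and 3 lower. *Slc7a13* was lower as well, by -0.54 without AAI and -0.24 with AAI, and *Slc34a1* by -0.43 and -1.09. Each of these differences rests on 1 mouse against 1 mouse in each pair.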

How the data were processed

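Single-nucleus RNA was measured in kidney cortex of 4 male mice. Per the submitters' processing notes, reads were handled with Cell Ranger and Seurat on mm10, and the authors clustered the nuclei and deposited, for each of 23 clusters and 4 mice, the average signal of each gene, on a scale where the columns sum to about 10000. The reference included unspliced RNA, nuclei with very few or very many genes or a high mitochondrial share had been excluded, and a doublet caller was not given in the sources used here and could not be run on averages. Cluster numbers were matched to names through the study's marker sheet. Of 19632 rows, 23 with date-like names were left out. Differences of log2(level + 1) were taken with numpy 2.4.6 and pandas 2.3.3, and genes were counted at 0.2 or more in the same direction in every mouse or pair, at a minimum level of 0.5. The scripts were run on simulated data for the AAI response in PT-S3-3 and for that response against PT-S3-1 and PT-S3-2. There, 100% of the raised and of the lowered genes were recovered. The planted changes were far larger than the threshold of 0.2 and the simulated noise was small, so this recovery was fixed in advance. The other comparisons were not run on simulated data. Recovery at the spread between real mice was not tested. Columns hold no counts or depth, so no count test and no interval were possible. Named genes were, in each direction, the 12 largest differences against the other clusters and with AAI and the 6 largest elsewhere, ranked by their smallest difference over mice or pairs, with segment markers and up to 6 counted members of each list, beside some named for their role after their values were seen; a few of these genes are not reported here. The members and gene lists were chosen with earlier results of these data known. Coordinates are from GENCODE vM21 (GRCm38) and promoters from RefSeq (GRCm38.p6). Alternatives were another pseudocount, filter and threshold, and single pairs.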

Additional observations from a re-analysis of the deposited data

Results flagged for a closer look

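The following values went in opposite directions in the 2 pairs of mice, the difference between the pairs was not tested, and each pair is 1 mouse against 1. With AAI, *Slc5a10*, a sodium-dependent sugar transporter of the late proximal tubule, changed by -0.25 in the control pair and by 0.30 in the hKLF6OE pair, and *Lrp2*, megalin, by -0.59 and 0.31. In hKLF6OE against control mice, the median of 10 mitochondrially encoded genes was 0.44 without AAI and -0.32 with AAI. Without AAI the mitochondrially encoded share was higher in the hKLF6OE mouse in other clusters too, such as distal convoluted tubule (1.93% in control, 2.65% in hKLF6OE). In hKLF6OE against control mice *Slc5a10* changed by -0.24 without and 0.31 with AAI, *Slc6a18* by -0.43 and 0.35, *Lrp2* by -0.60 and 0.30, and *Fxyd2*, a subunit of the sodium pump, by 0.82 and -0.71.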

How the results depend on the processing

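No paired analysis was possible because each condition was 1 mouse, so the conditions share only 1 replicate number, which was given in accession order and pairs nothing. No direction reversed, and of 672 values of named genes under the alternatives 655 stayed past the threshold and 17 did not. This was partly fixed in advance, since most of these genes were picked for the largest differences. Without a filter, or in fewer of the mice or pairs, a counted gene stays counted by construction. Counts depended on the settings and are given as higher and lower, with the reported pair first. For PT-S3-3 against the other 22 clusters (597 and 786), a minimum level of 2 gave 309 and 208, a threshold of 0.5 gave 231 and 397, no filter gave 1228 lower, and the AAI mice alone gave 910 higher. Against PT-S3-1 (71 and 66) a pseudocount of 0.1 gave 137 and 122, the minimum of 2 gave 29 and 28, the threshold of 0.5 gave 15 and 6, and the AAI mice alone 439 and 425. Against PT-S3-2 (119 and 136) the pseudocount gave 216 higher, the minimum 59 and 74, the threshold 17 and 46, the mice without AAI alone 378 and 370, and those with AAI 404 and 286. For the AAI response (590 and 433) the pseudocount gave 940 and 663, the minimum 265 and 188, the threshold 166 and 158, the control pair alone 967 and 782, and the hKLF6OE pair alone 1238 and 892. For that response against the neighbours (348 and 319) the pseudocount gave 718 and 514, the minimum 170 and 193, and the threshold 71 and 72. For genotype (36 and 88) the pseudocount gave 117 and 272, the minimum 18 and 46, the threshold 2 and 5, the pair without AAI 367 and 491, and the pair with AAI 562 and 626. A stricter filter or threshold keeps fewer genes by construction, and single pairs ask for 1 direction in fewer mice. The averages carry no depth, so levels near 0 cannot be given an error.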
